A study of Mus musculus with 12 samples.

Results

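The 2 treatments of MC38 cells given on their own, nintedanib and radiation, were compared directly with each other. MC38 is a mouse colorectal cancer cell line. Members were the 3 libraries labelled nintedanib and the 3 labelled radiation, 6 of the 12 libraries of the series. Genes were taken where FPKM, fragments per kilobase of gene model scaled to the size of the library, was at least 1 in at least 3 of these 6 libraries, which kept 12364 of 54532 genes. Nintedanib cultures received 3 µM of the drug and radiation cultures 8 Gy of X-rays, and the labels give 24 hours for both. The remaining groups were untreated control cultures, for which no time or vehicle is given, and cultures given both treatments. The latter received the same doses for 24 hours. Both groups served as reference and also entered the fit, so their spread helps set the standard errors, intervals and p-values. All 4 groups were the same cell line, and the labels name no engineered allele. Each treatment was given at 1 dose and read at 1 time, so a difference between them holds for those doses and that time. The labels describe 3 independent repeats, without saying that they used separate stocks of cells, so p-values measure the spread between these cultures.

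Nintedanib blocks receptor tyrosine kinases for VEGF, PDGF and FGF, which signal through the RAS-ERK and PI3K-AKT-mTOR pathways to growth, amino acid supply and lipid synthesis. X-rays break DNA, and the damage checkpoints that follow delay entry into and passage through mitosis. SREBP factors drive sterol and fatty acid genes, ATF4 drives amino acid genes, TFEB and TFE3 drive lysosomal genes, and the DREAM and FOXM1 complexes time the mitotic genes.

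Libraries held 16103528 to 18196615 fragments, recovered from the FPKM values. The third nintedanib library stood apart: mitochondrial transcripts took 2.12% of its fragments against 1.23 to 1.53% in the other 5 libraries, and small RNAs 0.0174% against 0.0868 to 0.192%. Without it, 4604 genes were called between the treatments instead of 4852, and in 46 of the 48 gene lists with at least 5 genes tested the number of members called in a direction moved by at most 2. The exceptions were ribosome biogenesis (26 to 22) and the cytosolic ribosomal proteins, where it went from 11 to 8. All 10 mesenchymal markers passed the filter, with 2 called higher with nintedanib, 2 with radiation and 6 not called. The level of Vim, an intermediate filament of mesenchymal cells, was 533 ± 32.0 FPKM (SD, n = 3) with nintedanib and 555 ± 42.5 (SD, n = 3) with radiation. Of 10 epithelial markers only Cdh1 and Krt19 passed the filter, while Epcam was at 0 in all 6 libraries and Cdx2 was below 0.05 FPKM throughout. Of 10 leukocyte markers 1 was tested, Cd68, and Adgre1, Cd3e and Nkg7 were at 0 in all 6 libraries. The summed level of the leukocyte markers was 14.9 to 15.8 FPKM with nintedanib and 4.98 to 6.15 with radiation, and Cd68, which encodes a lysosomal membrane protein, held most of it, at 14.4, 14.1 and 13.6 FPKM with nintedanib and 4.28, 5.41 and 4.60 with radiation. Of 8 endothelial markers 1 was tested, and their sum was 1.69 to 2.26 FPKM with nintedanib and 1.08 to 1.59 with radiation.

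In the direct contrast 4852 of 12364 genes differed (39.2%; limma on log2(FPKM + 1), Benjamini-Hochberg adjusted p under 0.05). Differences are given as nintedanib minus radiation, so a negative value means a higher level with radiation. Of the called genes 2472 were higher with nintedanib (20.0% of genes tested) and 2380 were higher with radiation (19.2%). A list whose share of called members is near these values does not stand out from all genes. A called difference of at least 2-fold was found for 435 genes (3.52%), 233 of them higher with nintedanib (1.88%) and 202 higher with radiation (1.63%). The 3 libraries of one treatment did not overlap the 3 of the other for 6017 genes (48.7%). The median difference over all genes was 0.00 on the log2 scale, and for 6391 genes (51.7%) the 95% interval of the difference lay within 0.5 of 0.

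The gene furthest on the nintedanib side was Mvd, which encodes mevalonate diphosphate decarboxylase of the cholesterol pathway and lies at chr8:122433601-122443422 on the minus strand (GRCm38, coordinates of the deposited table). It measured 146, 108 and 97.4 FPKM in the nintedanib libraries and 13.7, 14.9 and 16.2 with radiation. The groups were far apart, with a log2 difference of 2.87 (SE 0.23, adjusted p = 3.76e-06). The gene furthest on the radiation side was Car6, a secreted carbonic anhydrase at chr4:150187015-150201332 on the minus strand. It measured 1.39, 1.40 and 1.63 FPKM with nintedanib and 35.9, 23.3 and 25.4 with radiation, a log2 difference of -3.54 (SE 0.18, adjusted p = 2.5e-07). In controls Car6 measured 24.3, 31.2 and 21.6 FPKM, so the radiation libraries lay in the range of the controls or above it and the nintedanib libraries lay far below both. After Mvd the largest differences toward nintedanib included Plin4, Psca, Wisp2, Id2, Acat2, Nsdhl, Idi1, Elovl6, Fdps, Lss, Bnip3, Uap1l1 and Gpnmb. After Car6 the largest toward radiation were in Etv5, Angptl6, Etv4, Sh2d6, Ccl9, Acsbg1, Snhg12, Ddit3, Soat2, Spp1, Gadd45a, Cdsn, Trib3 and Slc7a11.

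**Figure D1:**
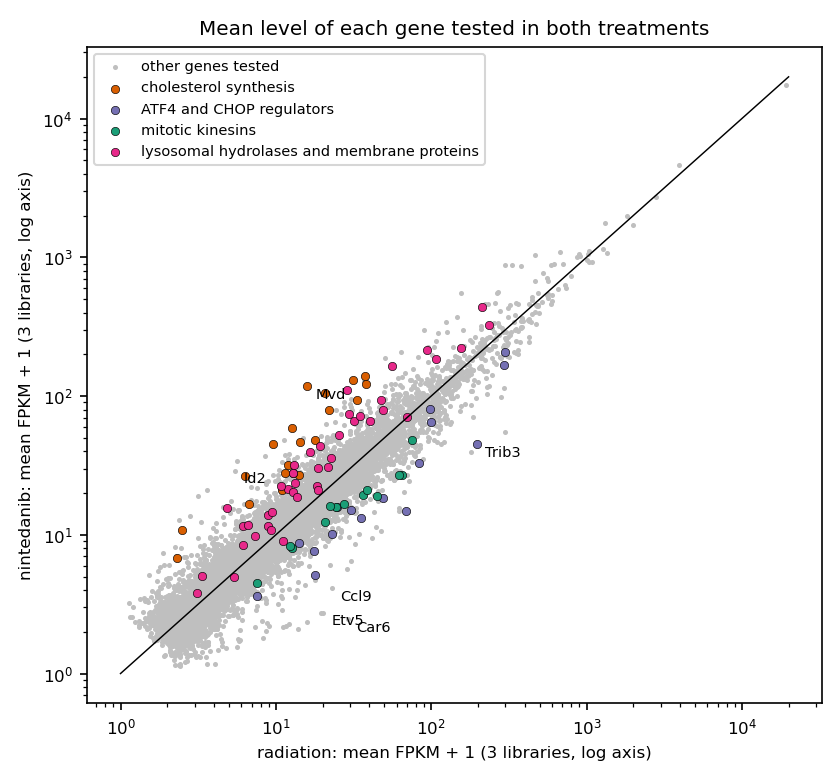
Mean FPKM + 1 of each of the 12364 genes tested with radiation (horizontal, log axis) and with nintedanib (vertical, log axis), 3 libraries each, with the line of equal level. Cholesterol and lysosomal genes lie mostly above the line, ATF4 regulators and mitotic kinesins below it, and Car6, Etv5 and Ccl9 are far below it.

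Cholesterol synthesis had the highest median of the lists. All 20 enzymes listed were tested, all 20 were higher with nintedanib, 18 of them by at least 2-fold, and the median log2 difference was 1.70 against 0.00 over all genes. The promoter of Hmgcs1, the synthase that opens the mevalonate pathway, is shown because it was the only 1 of 18 promoters of the list with a match to the sterol regulatory element. The window runs from 150 bases before to 30 after the start, chr13:119690201-119690380 on the plus strand (RefSeq, GRCm38.p6), and capitals mark the match.
Hmgcs1: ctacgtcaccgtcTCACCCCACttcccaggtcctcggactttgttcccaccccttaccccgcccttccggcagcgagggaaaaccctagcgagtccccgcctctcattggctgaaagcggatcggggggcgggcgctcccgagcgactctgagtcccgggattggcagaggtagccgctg
The element was searched on both strands as TCACNCCAC in 300-base windows and was held by 5.56% of the list's promoters and 1.24% of all 32851 promoters. The CCAAT box, searched as CCAAT on both strands, was in 14 of the 18 (77.8%) and in 37.4% of all, and 15 of the 20 genes matched the table. A match describes the letters and not a bound site.

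The synthase and the later enzymes of the pathway had no overlap between the groups. Hmgcs1 measured 132, 106 and 128 FPKM with nintedanib and 30.9, 43.0 and 36.9 with radiation (log2 difference 1.70, SE 0.14, adjusted p = 4.45e-06). Fdft1, the squalene synthase, measured 46.3, 39.3 and 51.0 FPKM with nintedanib and 11.96, 14.9 and 12.9 with radiation (log2 difference 1.70, SE 0.12, adjusted p = 2.14e-06). Among later steps, Sqle, the squalene epoxidase, differed by 1.502, Cyp51, a lanosterol demethylase, by 1.90, and Nsdhl, a sterol dehydrogenase, by 2.23 on the log2 scale. The Fdps value may share reads with near-identical copies of the gene, so its level of 9.85 FPKM with nintedanib and 1.504 with radiation is uncertain.

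In sterol regulation, uptake and efflux 11 of 12 genes tested were higher with nintedanib, with a median of 0.65. Insig1, which retains SREBP in the endoplasmic reticulum, measured 179, 185 and 197 FPKM with nintedanib and 42.5, 54.3 and 52.1 with radiation (log2 difference 1.90, SE 0.10, adjusted p = 3.81e-07). The factors Srebf2 and Srebf1 differed by 0.79 and 0.50, and Npc1, which exports sterol from lysosomes, did not pass the test. In fatty acid synthesis 11 of 13 genes were higher with nintedanib, 8 of them at least 2-fold, with a median of 1.02. Acss2, which makes acetyl-CoA from acetate, measured 10.4, 11.5 and 12.4 FPKM with nintedanib and 2.09, 2.46 and 2.30 with radiation. Its groups lay wide apart, with a log2 difference of 1.92 (SE 0.10, adjusted p = 2.02e-07). The desaturases Scd2 and Scd1 differed by 1.41 and 1.22, the elongase Elovl6 by 2.12, and Elovl5 by -0.07 with an adjusted p of 0.497. Lipid droplet genes were mixed: 5 of 12 were higher with nintedanib, 1, Dgat2, was higher with radiation, and the median was 0.18. The Dgat2 call was lost without the second (adjusted p = 0.134) or the third nintedanib library (0.0696) and without the first (0.136) or the third radiation library (0.056), with no filter on low values (0.0733) and with 6 libraries only (0.103). Plin4, a droplet coat protein, measured 32.4, 36.9 and 29.6 FPKM with nintedanib and 4.08, 5.001 and 4.76 with radiation (log2 difference 2.60, SE 0.10, adjusted p = 5.68e-08). The related coat gene Plin2 differed by -0.06 (95% interval -0.23 to 0.10). The sterol esterifying enzyme Soat2 went the other way, with 0.786, 1.22 and 0.420 FPKM with nintedanib and 8.26, 6.79 and 6.80 with radiation.

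Lysosomal genes were also mostly higher with nintedanib. Of 42 hydrolases and membrane proteins tested 36 were higher with nintedanib and 1, Galns, was higher with radiation, with a median of 0.71. Of 16 subunits of the vacuolar proton pump, which acidifies the lysosome, 14 were higher with nintedanib and none with radiation, with a median of 0.74. Ctsd encodes the protease cathepsin D, and its promoter holds the palindrome read by TFEB and its relatives. It was picked by size of difference among promoters with the palindrome. The window is chr7:142387798-142387977 on the minus strand (RefSeq, GRCm38.p6), with the match in capitals.
Ctsd: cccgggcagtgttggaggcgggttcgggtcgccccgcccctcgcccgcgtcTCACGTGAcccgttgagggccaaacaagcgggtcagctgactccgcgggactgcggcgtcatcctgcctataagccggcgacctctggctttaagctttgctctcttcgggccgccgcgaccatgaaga
The palindrome, searched as TCACGTGA, was in 8 of 49 promoters of the lysosomal and pump genes (16.3%) and in 0.974% of all promoters; 44 of 58 genes matched the table.

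Ctsd measured 161, 164 and 165 FPKM with nintedanib and 54.5, 51.9 and 58.9 with radiation (log2 difference 1.55, SE 0.07, adjusted p = 1.68e-07). Gpnmb, a glycoprotein of lysosomes and melanosomes, measured 100.7, 106 and 121 FPKM with nintedanib and 27.1, 27.6 and 28.5 with radiation (log2 difference 1.93, SE 0.08, adjusted p = 9.95e-08). In both genes every nintedanib library was above all radiation libraries. Neu1, a sialidase, differed by 1.69, Ctsa, its protective protein, by 1.34, and the pump subunit Atp6v0d1 by 1.23. Cathepsin L (Ctsl) was a member that did not pass the test, at 0.01 (95% interval -0.16 to 0.18). The list of MiT/TFE factors, folliculin and autophagy genes was less uniform: 15 of 26 were higher with nintedanib, 3 with radiation, and the median was 0.30. Flcn, the folliculin tumour suppressor, measured 29.1, 30.8 and 29.4 FPKM with nintedanib and 13.9, 12.6 and 12.3 with radiation (log2 difference 1.14, SE 0.07, adjusted p = 9.61e-07). Gabarap, an autophagosome protein, differed by 1.03. The autophagy receptor Sqstm1 and the factors Tfe3 and Tfeb did not follow the list: Sqstm1 was higher with radiation (-0.69), as was Tfe3 (-0.24), and Tfeb differed by 0.13 with an adjusted p of 0.282. The Tfe3 call was lost without the second (adjusted p = 0.0521) or the third nintedanib library (0.0769) and without the first (0.072) or the third radiation library (0.0703), and with 6 libraries only (0.0514).

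Glycolysis and hypoxia genes were also mostly on the nintedanib side, with 24 of 31 higher with nintedanib, 1, Vegfa, higher with radiation, and a median of 0.58. Bnip3, a mitophagy receptor, measured 38.5, 41.4 and 61.2 FPKM with nintedanib and 10.5, 11.4 and 9.17 with radiation (log2 difference 2.06, SE 0.18, adjusted p = 7.74e-06). Its libraries with nintedanib were the highest of the 6. Pfkl, a phosphofructokinase, differed by 1.43, Tpi1, triosephosphate isomerase, by 1.09, Pdk1, which restrains pyruvate entry into mitochondria, by 1.07, and Ldha, lactate dehydrogenase A, by 1.04. Aldoa stood under 2 identifiers, which differed in opposite directions, by 1.19 and -1.20, so no direction is given for it, although the first identifier counts among the 24. The factor Hif1a itself differed by -0.05 (95% interval -0.22 to 0.13).

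The ID proteins, inhibitors of basic helix-loop-helix factors and targets of BMP signalling, formed a small group on the same side. Id2 measured 31.1, 20.7 and 31.7 FPKM with nintedanib and 3.86, 4.48 and 5.02 with radiation (log2 difference 2.38, SE 0.20, adjusted p = 5.36e-06). Id3 measured 97.2, 63.2 and 74.7 FPKM with nintedanib and 19.0, 20.9 and 21.3 with radiation, and Id1 192, 104 and 116 with nintedanib and 59.5, 65.2 and 66.2 with radiation. All 3 genes had no overlap between the groups, and their log2 differences were 1.87 for Id3 and 1.04 for Id1. Smad6, the feedback inhibitor of BMP signalling, differed by 1.76. In the list as a whole 5 of 11 were higher with nintedanib and 1, the receptor Acvr1, was higher with radiation (-0.68), with a median of 0.16. In TGF-beta and extracellular matrix genes 12 of 29 were higher with nintedanib and 5 with radiation. Wisp2, a CCN matrix protein, measured 12.3, 11.7 and 11.4 FPKM with nintedanib and 1.30, 1.56 and 1.25 with radiation, a log2 difference of 2.44 (SE 0.09, adjusted p = 3.8e-08). Mmp14, a membrane protease, differed by 1.51 and Tgfb2 by 1.39. Osteopontin (Spp1), a secreted matrix protein, was on the other side, with 34.4, 35.2 and 46.1 FPKM with nintedanib and 208, 174 and 157 with radiation (log2 difference -2.19, SE 0.12, adjusted p = 3.85e-07). Among YAP and TAZ targets 8 of 14 were higher with nintedanib, 2 with radiation, and the median was 0.32, led by F3, tissue factor, at 1.56.

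**Figure D2:**
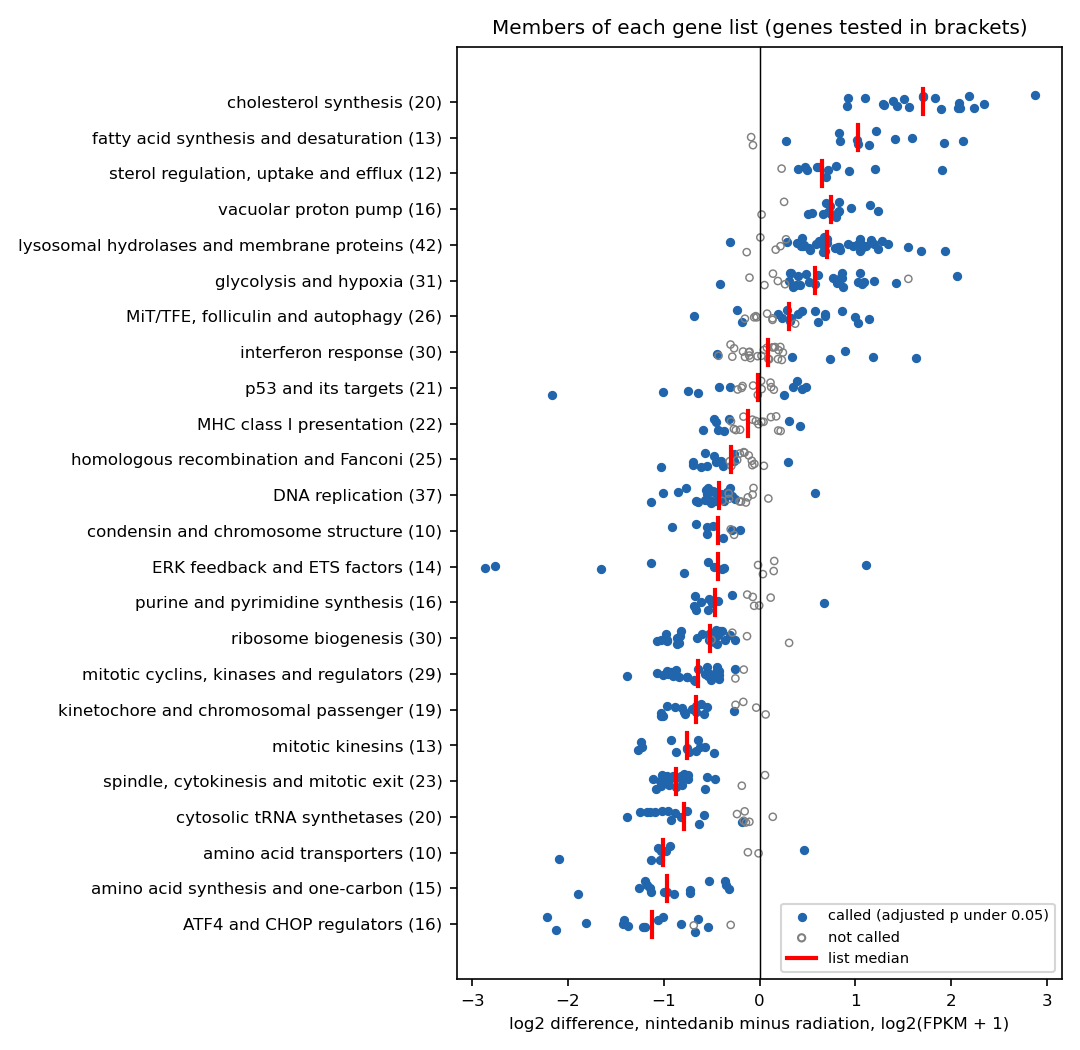
Log2 difference, nintedanib minus radiation, of every gene tested in 24 lists (points), filled where called, with the list median as a red bar. Cholesterol genes lie to the right of 0 and ATF4 and mitotic genes mostly to the left, with interferon and p53 genes around 0.

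The ATF4 and CHOP regulators had the lowest median of the lists. Of 16 genes tested 14 were higher with radiation and none with nintedanib, with a median of -1.12. All 15 amino acid synthesis and one-carbon genes tested were higher with radiation, with a median of -0.96. For 7 of 10 amino acid transporters and 14 of 20 cytosolic tRNA synthetases the radiation level was higher, with medians of -1.005 and -0.79. The promoters of Trib3, a pseudokinase that restrains ATF4, and Slc7a11, the cystine importer, both hold the CARE motif bound by ATF4 dimers. They were picked by size of difference among promoters with the motif. The windows are chr2:152344031-152344210 and chr3:50443584-50443763, both on the minus strand (RefSeq, GRCm38.p6), and capitals mark each match.
Trib3: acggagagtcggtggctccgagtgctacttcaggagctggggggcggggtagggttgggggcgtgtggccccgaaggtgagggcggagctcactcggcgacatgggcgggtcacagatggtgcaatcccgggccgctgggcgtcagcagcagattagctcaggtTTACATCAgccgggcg
Slc7a11: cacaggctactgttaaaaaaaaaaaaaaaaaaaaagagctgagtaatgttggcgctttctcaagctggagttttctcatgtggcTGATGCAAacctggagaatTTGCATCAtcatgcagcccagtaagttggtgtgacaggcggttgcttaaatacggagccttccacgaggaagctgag
The motif, searched as TGATGNAA on both strands, was in 15 of 54 promoters of the ATF4 lists (27.8%) and in 3.97% of all promoters; 47 of 61 genes matched the table.

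Ddit3, which encodes CHOP and lies at chr10:127290774-127296288 on the plus strand (GRCm38), measured 12.8, 14.6 and 13.9 FPKM with nintedanib and 73.8, 62.7 and 67.0 with radiation (log2 difference -2.22, SE 0.18, adjusted p = 3.98e-06). Trib3 measured 49.1, 43.8 and 39.3 FPKM with nintedanib and 215, 174 and 197 with radiation (log2 difference -2.12, SE 0.20, adjusted p = 1.46e-05). Slc7a11 measured 0.910, 1.10 and 1.08 FPKM with nintedanib and 7.38, 8.09 and 7.63 with radiation (log2 difference -2.10, SE 0.13, adjusted p = 7.37e-07). In all 3 genes the highest nintedanib library was far below the lowest radiation library. Sesn2, an mTORC1 inhibitor, differed by -1.82, and Atf4 itself by -0.82. Of the synthesis genes Cth, which makes cysteine, differed by -1.90 and Pycr1, which makes proline, by -1.26. Of the synthetases Wars, for tryptophan, differed by -1.38 and Lars, for leucine, by -1.25. Dars, Hars and Sars did not pass the test. The glutamine transporter Slc38a2 overlapped between the groups, at -0.01 (95% interval -0.17 to 0.15), and Slc36a4 was higher with nintedanib.

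Of 30 ribosome biogenesis genes 26 were higher with radiation and none with nintedanib, with a median of -0.51. Without the third nintedanib library the count was 22. Wdr43, a small-subunit processome protein, measured 35.4, 30.5 and 33.0 FPKM with nintedanib and 67.1, 65.7 and 64.1 with radiation (log2 difference -0.97, SE 0.07, adjusted p = 1.34e-06). Nop58, a snoRNP core protein, differed by -1.08. Of 16 purine and pyrimidine genes 10 were higher with radiation and 1, Impdh1, with nintedanib, with a median of -0.47. For the cytosolic ribosomal proteins 11 of 47 were higher with radiation and none with nintedanib, with a median of -0.24. That share is near the 19.2% of all genes, and without the third nintedanib library the count was 8. Myc measured 41.2, 37.9 and 36.1 FPKM with nintedanib, 74.0, 68.9 and 79.6 with radiation and 170.0, 176 and 182 in controls, so that the radiation libraries stood between the other groups (log2 difference between treatments -0.93, SE 0.09, adjusted p = 1.01e-05). In the Myc family list 3 of 10 were higher with nintedanib, 1, Myc, with radiation and 6 were not called, with a median of 0.08. The antagonists Mxd4, Mxi1 and Mxd3 were higher with nintedanib, at 0.88, 0.50 and 0.66, while Mxd1 and Mnt were not called, at 0.05 (adjusted p = 0.687) and 0.14 (adjusted p = 0.334).

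Among targets of ERK signalling the ETS factors Etv5 and Etv4 differed most. Etv5, at chr16:22381309-22439719 on the minus strand (GRCm38), measured 1.63, 1.92 and 1.68 FPKM with nintedanib and 19.2, 16.9 and 21.2 with radiation (log2 difference -2.87, SE 0.09, adjusted p = 1.93e-08). Etv4 measured 1.46, 1.52 and 1.02 FPKM with nintedanib and 15.4, 13.8 and 15.2 with radiation (log2 difference -2.76, SE 0.09, adjusted p = 1.93e-08). Neither gene came near overlap. In the list 9 of 14 were higher with radiation, with a median of -0.44, among them the feedback inhibitors Spry4 (-1.65) and Dusp6 (-1.13). Dusp4, another ERK phosphatase, was the 1 member higher with nintedanib, at 116, 103 and 97.9 FPKM against 42.5, 45.8 and 57.6 with radiation (log2 difference 1.11, SE 0.13, adjusted p = 4.79e-05). AP-1 genes split between the sides: Fosl1 was higher with radiation (-2.04), as were Egr1 (-1.41) and Junb (-1.18), while Fosl2 (1.56) and Jund (1.13) were higher with nintedanib. In that list 5 of 13 were higher with radiation and 3 with nintedanib. The AP-1 motif, searched as TGANTCA on both strands, was in none of 22 promoters of the ERK and AP-1 lists and in 7.81% of all promoters, which says only that these letters are not in those windows.

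In each of 5 mitotic lists most genes tested were higher with radiation. For the cyclins, kinases and regulators 27 of 29 were higher with radiation, for the kinesins 13 of 13, for kinetochore and passenger proteins 15 of 19, for spindle and cytokinesis proteins 21 of 23 and for condensins and chromosome proteins 8 of 10, and none was higher with nintedanib. The medians were -0.64, -0.76, -0.67, -0.88 and -0.43. In bulk cultures a larger share of cells late in the cell cycle, before or in mitosis, and more RNA per cell cannot be told apart. The promoter of Kif18b, a kinesin that trims astral microtubules, holds both motifs of late cell cycle genes, the CHR and the CCAAT box. It was picked by size of difference among promoters with both. The window is chr11:102925095-102925274 on the minus strand (RefSeq, GRCm38.p6), with matches in capitals.
Kif18b: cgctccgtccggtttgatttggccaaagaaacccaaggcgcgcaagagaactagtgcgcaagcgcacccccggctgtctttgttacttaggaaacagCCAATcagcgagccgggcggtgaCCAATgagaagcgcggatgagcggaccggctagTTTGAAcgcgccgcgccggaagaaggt
The CHR, searched as TTTGAA on both strands, was in 55 of 87 promoters of the mitotic lists (63.2%) and in 17.9% of all promoters; the CCAAT box was in 67.8% and 37.4%. Of the 94 genes 79 matched the table.

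Aurka, the kinase that matures centrosomes, measured 52.2, 39.3 and 44.6 FPKM with nintedanib and 130.5, 111 and 118 with radiation (log2 difference -1.39, SE 0.10, adjusted p = 2.04e-06). Kif20a, a kinesin of cytokinesis, measured 30.2, 22.9 and 25.0 FPKM with nintedanib and 62.0, 62.6 and 66.5 with radiation (log2 difference -1.27, SE 0.09, adjusted p = 2.03e-06). In controls Aurka measured 53.9, 55.0 and 55.0 and Kif20a 27.6, 26.3 and 28.9 FPKM, so the radiation libraries stood above the controls in both genes. Kif18b differed by -1.23, cyclins Ccnb1 and Ccnb2 by -1.01 and -0.97, the spindle factor Tpx2 by -1.08, the cohesin protector Sgo1 by -1.03 and Top2a, topoisomerase II alpha, by -0.91. The securin Pttg1 and the kinetochore protein Zwint differed by 0.06 and 0.06, with adjusted p of 0.741 and 0.515. Foxm1 and Mybl2 encode transcription factors of mitotic genes and already count among the cyclins, kinases and regulators. Foxm1 differed by -0.52 (limma adjusted p = 0.000388) and Mybl2 by -0.68 (adjusted p = 0.00499), both higher with radiation. Whether they drive the other members was not tested.

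Of 37 replication genes 26 were higher with radiation and 1, the uracil glycosylase Ung, with nintedanib, with a median of -0.43. Cdt1, which licenses origins, measured 36.0, 25.2 and 22.6 FPKM with nintedanib and 64.0, 52.7 and 68.0 with radiation (log2 difference -1.13, SE 0.16, adjusted p = 0.000187). Of 25 homologous recombination and Fanconi genes 13 were higher with radiation and 1, Xrcc3, with nintedanib, with a median of -0.29. The Xrcc3 call was lost without the first radiation library (adjusted p = 0.0603). Among the genes with FPKM of at least 5 in at least 3 of the 6 libraries the median was -0.45.

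The p53 list showed no common direction, with 5 of 21 higher with nintedanib, 6 with radiation and a median of -0.02. Gadd45a, a growth arrest protein, measured 11.9, 9.71 and 7.47 FPKM with nintedanib and 52.8, 43.1 and 43.2 with radiation (log2 difference -2.16, SE 0.20, adjusted p = 1.21e-05). In controls it measured 57.3, 81.4 and 65.4, and the difference of radiation from control did not pass the test (adjusted p = 0.0893). Cdkn1a, the CDK inhibitor p21, measured 22.98, 16.7 and 18.6 FPKM with nintedanib and 33.1, 31.5 and 34.2 with radiation (log2 difference -0.74, SE 0.12, adjusted p = 0.000662), with controls at 28.9, 33.6 and 29.0. Bax, a death effector, was higher with nintedanib (0.48), and Mdm2, the p53 ligase, differed by 0.12 (95% interval -0.02 to 0.26). The Bax call was lost without the first (adjusted p = 0.0658) or the second nintedanib library (0.0517) or the second radiation library (0.0635). Among the cyclins and CDK inhibitors 2 of 20 were higher with nintedanib and 5 with radiation, including E2f2 (-1.21) and cyclin D1, Ccnd1 (-0.76). In histone genes 3 of 16 were higher with nintedanib and 1 with radiation. H1f0, a linker histone, measured 481, 432 and 459.6 FPKM with nintedanib and 237, 210.2 and 218 with radiation (log2 difference 1.04, SE 0.12, adjusted p = 5.41e-05). Controls measured 524, 665 and 555, so both treatments lay below every control, with differences from control of -0.34 for nintedanib (adjusted p = 0.0414) and -1.38 for radiation (adjusted p = 8.37e-05).

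Of 47 interferon response genes 30 were tested, of which 5 were higher with nintedanib and 1, Irf1, with radiation; 24 were not called. The share higher with nintedanib was below the 20.0% of all genes, and for 20 members the 95% interval lay within 0.5 of 0, against 51.7% of all genes. The promoter of Ifit3, an antiviral protein of the interferon response, holds the ISRE bound by STAT and IRF factors. It was picked by size of difference among promoters with the element. The window is chr19:34583379-34583558 on the plus strand (RefSeq, GRCm38.p6), with the match in capitals.
Ifit3: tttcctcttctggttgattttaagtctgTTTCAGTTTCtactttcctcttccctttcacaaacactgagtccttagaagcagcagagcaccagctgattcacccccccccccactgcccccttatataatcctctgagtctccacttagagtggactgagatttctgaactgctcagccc
The element, searched on both strands as a pair of GAAA runs with 2 free bases between them, was in 15 of 30 promoters of the list (50%) and in 3.44% of all promoters, and 24 of 30 genes matched the table. Ifit3 measured 2.96, 5.68 and 4.92 FPKM with nintedanib and 0.666, 0.675 and 0.901 with radiation (log2 difference 1.63, SE 0.19, adjusted p = 5.11e-05). Ifit3 passed the filter only through the nintedanib libraries, where it was high, and the p-value does not allow for that. Ifit2 measured 21.1, 22.7 and 24.8 FPKM with nintedanib and 9.34, 9.77 and 9.37 with radiation, a log2 difference of 1.18. Both genes were higher in all nintedanib libraries, as were Bst2, tetherin (0.89), and Stat2, a signal transducer (0.73).

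In MHC class I presentation 14 of 22 genes were not called, 6 were higher with radiation (19.2% of all genes were) and 2 with nintedanib (20.0% of all genes were). The members higher with radiation included the immunoproteasome gene Psmb10 (-0.59) and the peptide transporters Tap2 (-0.48) and Tap1 (-0.32). The Tap1 call was lost without the third nintedanib library (adjusted p = 0.071) or the first (0.0697) or the third radiation library (0.0715), and the Tap2 call without the first radiation library (0.058). The class I heavy chain H2-K1 differed by 0.02 (95% interval -0.18 to 0.22), and calnexin, Canx, by -0.08. Of 11 chemokines and cytokines 7 were higher with radiation and none with nintedanib. Among genes with FPKM of at least 5 the count was 4, but fewer members were then tested, with Cxcl10 and Lif among those left out. Ccl9, a chemokine of myeloid cells at chr11:83572919-83578636 on the minus strand (GRCm38), measured 2.47, 3.57 and 3.36 FPKM with nintedanib and 22.8, 22.2 and 20.9 with radiation (log2 difference -2.49, SE 0.18, adjusted p = 1.98e-06). Its controls measured 3.84, 4.35 and 4.39 FPKM, so the radiation libraries were the high ones. Ccl2 differed by 0.02 (95% interval -0.25 to 0.29). In the NF-kB list 5 of 13 were higher with radiation, led by Nfkb2 (-0.93) and Relb (-0.80), and none with nintedanib. Among ligands of immune checkpoints 3 of 11 were higher on each side. PD-L1, Cd274, measured 0.805, 0.871 and 0.966 FPKM with nintedanib and 2.87, 2.35 and 1.97 with radiation (log2 difference -0.84, SE 0.11, adjusted p = 0.000123), a low level in both. Cd274 passed the filter only through the radiation libraries, where it was higher, and the p-value does not allow for that. Icosl and Cd47 were also higher with radiation, at -0.87 and -0.59, while Lgals9, Pvr and Cd1d1 were higher with nintedanib, at 0.71, 0.59 and 0.85.

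Of 16 kinases that nintedanib blocks 5 passed the filter. The receptors that did were Fgfr1, Pdgfra and Pdgfrb, whereas Fgfr2, Kit and Flt3 were at 0 in all 6 libraries and the VEGF receptor gene Kdr was at or near 0. Pdgfrb measured 20.5, 22.7 and 19.9 FPKM with nintedanib and 11.2, 12.9 and 13.0 with radiation (log2 difference 0.72, SE 0.08, adjusted p = 2.63e-05). Pdgfra differed by 0.49 and Fgfr1 by 0.21, and all 3 receptors were higher with nintedanib. The Fgfr1 call was lost without the second (adjusted p = 0.0868) or the third nintedanib library (0.0632), without the first (0.071) or the second radiation library (0.106), and with the replicate block (0.0522). It was also lost with FPKM rescaled to a common sum (0.082) or a common protein-coding sum (0.11), with voom (0.0515) and with 6 libraries only (0.0759), so 9 of 17 alternatives ended it. Src and Lyn did not pass the test. Of the ligands and coreceptors 3 of 8 were higher with nintedanib and 2 with radiation. Vegfb was higher with nintedanib (1.10) and Vegfa with radiation (-0.41), and Nrp2, a coreceptor, was higher with nintedanib (0.81). In other receptor kinases 4 of 12 were higher with nintedanib and 3 with radiation, among them Ddr1 (0.51) and Epha2 (-0.64).

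Stress and metabolic lists with no common direction still held genes that were far apart. In heat shock genes 6 of 15 were higher with nintedanib and 4 with radiation. Cryab, a small heat shock protein, measured 98.1, 95.9 and 88.7 FPKM with nintedanib and 29.7, 29.2 and 29.1 with radiation (log2 difference 1.65, SE 0.09, adjusted p = 3.51e-07). The mitochondrial chaperones Hspa9 and Hspd1 were higher with radiation, at -0.80 and -0.66. In the endoplasmic reticulum list 1 of 22 was higher with nintedanib and 4 with radiation, namely the sensors Ern1 (-0.99) and Atf6 (-0.47), the chaperone Hspa5 (-0.72) and Herpud1 (-0.31); for 16 the interval lay within 0.5 of 0. Of 21 NRF2 and glutathione genes 6 were higher with nintedanib and 5 with radiation. Slc7a11 and Chac1, which also stand in the ATF4 lists, were on the radiation side, and Ftl1, the ferritin light chain, was on the nintedanib side (1.17). In FoxO and insulin feedback genes 5 of 19 were higher with nintedanib and 2 with radiation. Txnip, a thioredoxin inhibitor, measured 5.53, 12.4 and 9.49 FPKM with nintedanib and 39.1, 28.3 and 32.2 with radiation (log2 difference -1.80, SE 0.32, adjusted p = 0.00102). Clock genes split, with Dbp, an output factor, higher with nintedanib (1.49) and Arntl, which encodes the clock activator BMAL1, higher with radiation (-1.42). In all 7 of 15 were higher with nintedanib and 2 with radiation. Of 12 mitochondrially encoded genes 2 were higher with nintedanib, mt-Nd1 and mt-Nd2, at 0.43 and 0.53. Both were highest in the third nintedanib library, whose share of mitochondrial fragments was 2.12%. Without that library neither was called, at 0.29 (adjusted p = 0.104) for mt-Nd1 and 0.31 (adjusted p = 0.102) for mt-Nd2. Without the first radiation library the adjusted p was 0.052 and 0.0552, without the third 0.128 and 0.129, and with the replicate block 0.0565 and 0.0525. Both calls were also lost with no filter (0.288 and 0.106), with FPKM rescaled to a common sum (0.0756 and 0.0737) and with 6 libraries only (0.0907 and 0.0905), and that of mt-Nd2 with a common protein-coding sum (0.0501).

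**Figure D3:**
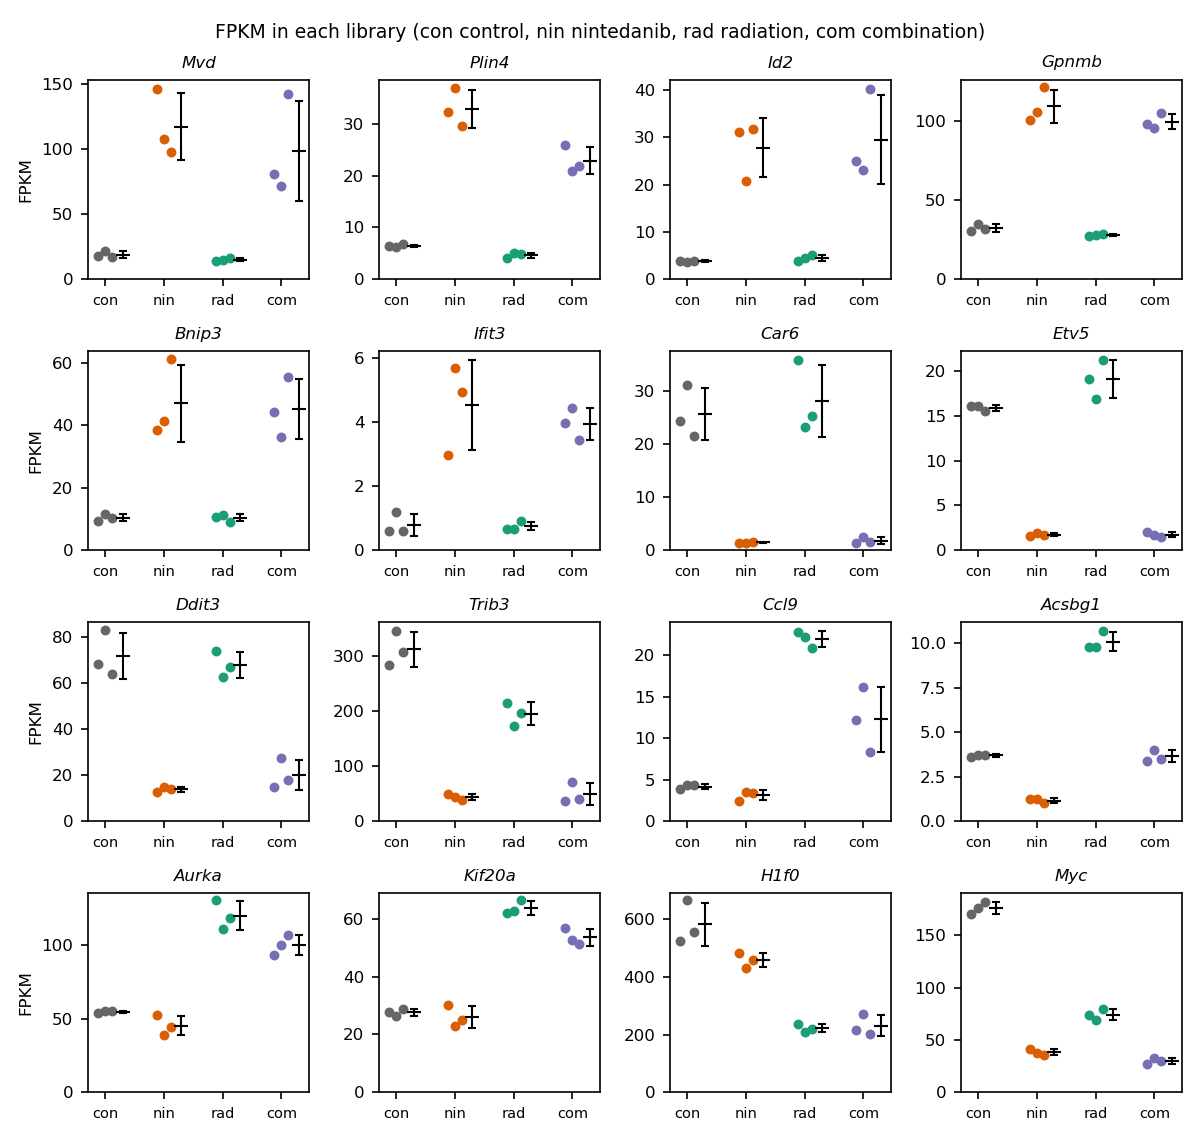
FPKM of 16 genes in each of the 12 libraries (points), with the mean and SD of each group of 3 beside them; each axis starts at 0. Mvd, Plin4, Id2, Gpnmb, Bnip3 and Ifit3 are high with nintedanib, Car6, Etv5, Ddit3 and Trib3 are low with it, Ccl9, Acsbg1, Aurka and Kif20a are high with radiation, and H1f0 is below the controls with either treatment, further with radiation.

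Set against controls, the lists that separated the treatments did so from different sides. Both comparisons use the same 3 control libraries, so their values are given side by side only. Over the 12364 genes nintedanib gave 2523 higher (20.4%) and 2841 lower than control (23.0%), and radiation 1033 higher (8.35%) and 1289 lower (10.4%). For cholesterol synthesis the median was 1.51 with nintedanib and -0.15 with radiation, and 20 of 20 rose with nintedanib while none was called with radiation. For lysosomal genes it was 0.68 and -0.10, with 39 of 42 rising with nintedanib and 10 falling with radiation. For ATF4 and CHOP regulators the medians were -1.47 and -0.38, with all 16 falling with nintedanib and 6 with radiation. For mitotic kinesins they were -0.17 and 0.71, with 13 of 13 rising with radiation and 5 falling with nintedanib. For spindle and cytokinesis genes they were -0.10 and 0.74, with 20 of 23 rising with radiation. Ribosome biogenesis had medians of -1.05 and -0.43, with 29 of 30 falling with nintedanib and 19 with radiation. Interferon response genes, mostly not called between the treatments, had medians of 0.39 and 0.21 against controls. Of the 30 tested, 19 rose and 1 fell with nintedanib, and 11 rose with radiation. MHC class I genes had medians of 0.18 and 0.33. Of 22, 9 rose with nintedanib, and 12 rose and 1 fell with radiation. Acsbg1, an acyl-CoA synthetase at chr9:54604877-54661870 on the minus strand (GRCm38), moved in opposite directions: it measured 1.24, 1.23 and 1.001 FPKM with nintedanib, 3.63, 3.74 and 3.73 in controls and 9.80, 9.78 and 10.7 with radiation. Its difference from control was -1.12 with nintedanib (adjusted p = 1.17e-06) and 1.24 with radiation (adjusted p = 1.44e-05), and no libraries of the 3 groups overlapped. In the cultures given both treatments Acsbg1 measured 3.41, 4.03 and 3.50, around the control level.

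**Figure D4:**
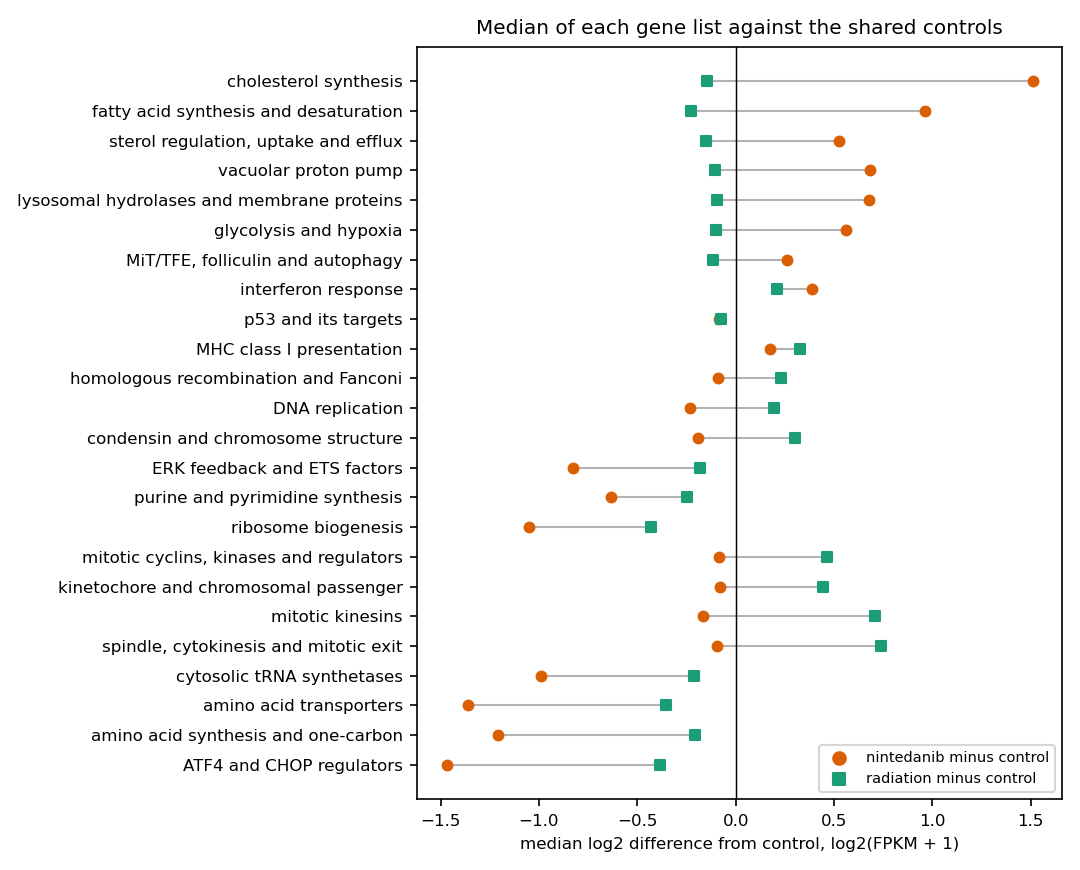
Median log2 difference from control of each list with nintedanib (circles) and with radiation (squares), which share the 3 controls. Cholesterol genes lie at 1.51 with nintedanib and -0.15 with radiation, and mitotic kinesins at -0.17 and 0.71.

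**Figure D5:**
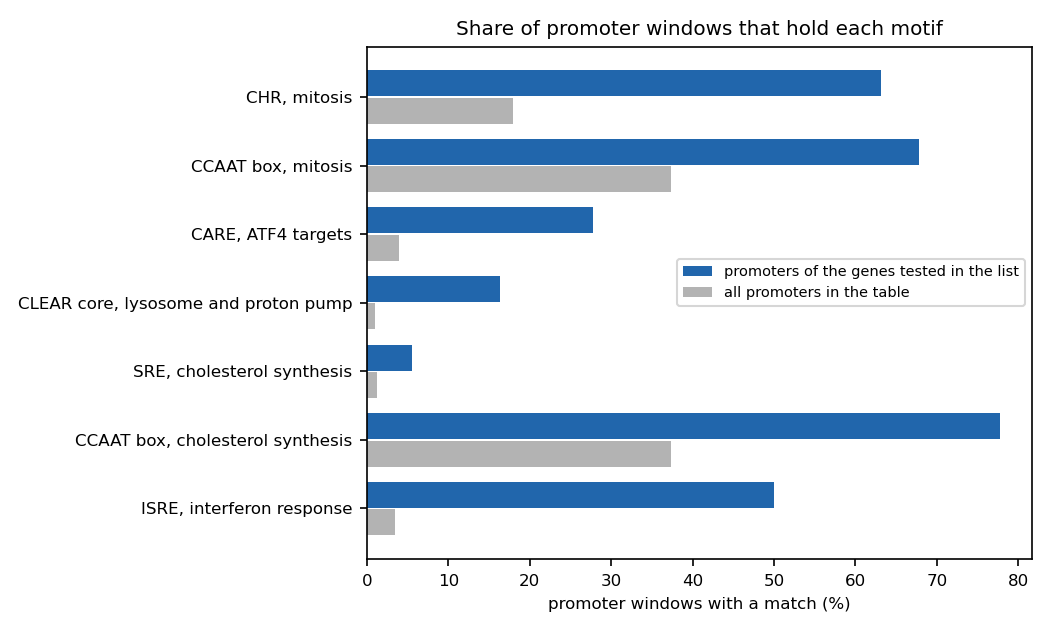
Percent of promoter windows that hold each motif, for the genes tested in a list (blue) and for all 32851 promoters (grey), from 300-base windows. The CHR is in 63.2% of mitotic and 17.9% of all promoters, and the ISRE in 50% of interferon and 3.44% of all promoters.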

How the data were processed

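RNA from 12 MC38 cultures was sequenced. Per the file headers, the deposited table holds FPKM for 54532 genes beside gene model lengths and coordinates. Its build, per the submitters' processing notes, is GRCm38 (mm10). For aligner, counter, strand setting and scaling, the methods were not given in the sources used here. Fragments were recovered from FPKM times length, and 100% of nonzero values were whole within 0.01 of a step. These totals describe counting error only.

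All 12 libraries entered 1 fit on log2(FPKM + 1) with limma 3.58.1 (intensity trend, two-sided, 8 residual degrees of freedom) in R 4.3.3. Genes with FPKM of at least 1 in at least 3 of the 6 nintedanib and radiation libraries were tested. Adjustment was by Benjamini-Hochberg over all 12364 genes, with calls at 0.05, and another count required an absolute log2 difference of at least 1. Differences understate changes of genes at low FPKM. In 1 simulation 100 genes were altered by a log2 change of 0.5 and another 100 by 1, in the nintedanib libraries only. The fit recovered 46% of the former and 85% of the latter, with 3 false calls in all among the unaltered genes. Far fewer genes were altered than the 4852 called in the data. The adjusted threshold depends on that share, so these rates need not hold for the real comparison. A gene that was not called can still differ, above all by a small amount. Alternatives changed the pseudocount, filter, scaling, model and libraries used.

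The comparison, the gene lists and the motifs were chosen with earlier results of these data known. Lists are described by counts and medians, and no set was tested. Genes were named by rule: the 15 with the largest difference on each side that passed the threshold, did not overlap and averaged 5 FPKM or more in the group where they were higher, passing over predicted symbols. From each list the rule takes up to 6 members by adjusted p, up to 3 uncalled members with the narrowest intervals, members of the target kinase, ligand, ID, Myc, p53 and marker lists, and the factors that head a list. Genes named outside the rule, namely Hmgcs1, Galns, H2-K1, Hspd1, Impdh1, Slc36a4, Sqstm1, Ung and Xrcc3, were chosen after their values were seen. Some genes that the rule takes are not reported here. Promoters are RefSeq windows from 250 bases before to 50 after each start. Those shown were taken in order of absolute difference between the treatments, among list members with a match in the shown window. They therefore say nothing of a link between motif and difference.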

Additional observations from a re-analysis of the deposited data

How the results depend on the processing

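Of 547 genes called among the list members and the genes named, 461 kept their call in all 17 alternative settings, 86 lost it in at least 1, and none changed direction. Leaving out 1 library at a time gave 3885 to 4604 genes called, and the other settings gave 3788 (FPKM of at least 5) to 5035 (voom on recovered fragments). The share of called genes higher with nintedanib was 50.9% and ranged from 45.8 to 52.1%; the lowest came from FPKM rescaled to a common protein-coding sum, an alternative chosen after seeing the data. With the 6 compared libraries only, 4125 genes were called. With the replicate block 4459 genes were called, 4402 of them shared with the fit without it. Among the list members and top genes named in the report, the block ended the calls of Fgfr1, mt-Nd1 and mt-Nd2 and of no other. Same-numbered libraries did not deviate together (r of 0.10, -0.01 and -0.20). With 3 libraries a group these values cannot show whether the numbers mark the repeats, and no pairing was assumed.

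A pseudocount of 0.1 raised the count at 2-fold or more to 698 (365 higher with nintedanib, 333 with radiation), and voom raised it to 740 (371 and 369). The cholesterol median was 1.82 and 1.81 in these settings, that of ATF4 and CHOP regulators -1.28 and -1.32, and voom gave -0.54 for ERK feedback genes. With FPKM of at least 5 the lysosomal median was 0.79, the recombination and Fanconi median -0.45 and the chemokine count 4, of fewer members tested. Without 1 library the lysosomal median ranged from 0.69 to 0.79, the proton pump median from 0.70 to 0.81 and the YAP median from 0.26 to 0.36. Depth limits the precision of genes at low FPKM, and each culture was read at 1 dose and 1 time.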

Other observations

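Snhg5 and 4 other host genes of small nucleolar RNAs were picked after their values were seen, from no fixed list, so they give no direction for host genes in general. Snhg5 measured 15.04, 10.6 and 15.6 FPKM with nintedanib and 65.5, 62.3 and 56.1 with radiation (log2 difference -2.09, SE 0.15, limma adjusted p = 1.68e-06). Snhg1, Zfas1 and Gas5 differed by -1.54, -1.94 and -1.20, and Snhg18 went the other way, at 1.13. In each of the 5 the groups did not overlap, as in 48.7% of all genes tested. These RNAs are spliced transcripts whose introns carry snoRNAs, and several of them are known as growth-linked transcripts.

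Several abundant genes outside the lists also differed, and they too were chosen after their values were seen. Dusp1, a phosphatase of MAP kinases, measured 130.0, 127 and 129 FPKM with nintedanib and 36.7, 35.3 and 36.1 with radiation (log2 difference 1.81, SE 0.08, limma adjusted p = 9.95e-08), on the side of Dusp4 and opposite to Dusp6. The surface antigens Ly6c1 and Ly6a differed by 1.84 and 1.57, and Ly6a reached 878 ± 86.9 FPKM (SD, n = 3) with nintedanib. Vdr, the vitamin D receptor, differed by 1.73, Mt1, a metallothionein, by 1.70, and Hmga1, a chromatin protein, was higher with radiation (-1.59), with nintedanib libraries at 135, 96.0 and 61.3 FPKM that varied widely. Tigit, a lymphocyte receptor, measured 0.610, 1.66 and 1.25 FPKM with nintedanib and 7.58, 7.10 and 4.28 with radiation, whereas Cd3e was at 0 in all 6 libraries.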
